A study of Mus musculus with 185 samples.

Results

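Embryonic Langerhans cells (eLCs) are the host's own epidermal LCs, and 79 of the 185 single cells deposited were labelled as such. They were chosen by that label and by having at most 5% of their reads on mitochondrial genes, a filter that every eLC and 182 of all cells passed. The cells came from bone marrow chimeras in which B6 CD45.1 Cd207DTR mice were lethally irradiated and reconstituted with marrow of wild-type CD45.2 donors, and eLCs were told apart from donor-derived LCs by the congenic marker during index sorting. All hosts were given DT at 5 ng per gram of body weight, 2 months after the transplant and 2 months before the sort, so there was no group of eLCs without irradiation or DT. The eLCs analyzed were therefore host LCs still in the epidermis after both. Cd207DTR places the DT receptor in the Cd207 locus, so the Cd207 mRNA of eLCs came from a modified locus. The sort gate asked for CD11c, CD11b, CD24, MHCII and CD326 (the product of Epcam) and against lineage markers that included CD3, Nk1.1, Ly6G and SiglecF, so high levels of MHC class II and Epcam were in part set by the gate. The labels name no animal or age for any cell. The 79 eLCs are thus 1 sample, no test was run, and the spread given below is the spread between cells. The cells were sorted on 2 plates, 29 eLCs on plate 1 and 50 on plate 2, and each pattern is given for both plates as a check.

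LCs are the resident mononuclear phagocytes of the epidermis. They are seeded before birth, renew themselves in place, and depend on TGF-beta and on signals through the CSF1 receptor. They take up antigen through lectins such as langerin (Cd207), are held among keratinocytes by adhesion molecules, and on maturation lose this anchoring, gain the chemokine receptor CCR7 and leave for the skin-draining lymph nodes. MHC class II molecules load peptides in the endosome, where the invariant chain (Cd74) guards the groove until H2-DM exchanges its remnant for peptide.

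Full-length cDNA of each cell was sequenced, and PCR copies of a molecule could not be removed. The depth of eLCs ran from 432614 to 4525429 reads with a median of 2779080, and 2584 to 6154 genes (median 4488) had a read. The median number of genes was 4488 genes on plate 1 and 4462.5 on plate 2. The mitochondrial share reached at most 1.29% on plate 1 and 3.89% on plate 2, and the share had a rho with depth of -0.41 over 79 eLCs, but of 0.38 on plate 1 and -0.70 on plate 2. No eLC had the same values as another cell. Levels are given as CPM, reads scaled to a total of 1000000 in a cell or in the summed eLCs, and as TPM, which also divides by the length of a gene's exons, wherever genes are compared with each other.

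The labelled cell type was checked on its markers. Of the 6 LC markers, Cd207, Cd74, H2-Ab1 and Mfge8 had a read in all 79 eLCs, Epcam in 78 and Timd4 in 60. Most markers of keratinocytes, T cells, B cells, fibroblasts, mast cells and granulocytes were at 0. Krt1, Krt15, Trp63, Dsg3, Dsp and Lor of the 11 keratinocyte markers had no read in any eLC, and the summed keratinocyte list was at 0 CPM in the median eLC and at 134 CPM in the highest. Cd3e, Thy1, Trac and Trdc were at 0, as were Ccr2, F13a1, Fcgr1 and Chil3 among monocyte and macrophage markers, all 5 fibroblast markers and 7 of 8 mast cell and granulocyte markers. Lyz2, which encodes a lysozyme of monocytes and macrophages, had a read in 18 eLCs, and the summed list of 8 monocyte and macrophage markers was read in 25 eLCs, up to 439 CPM. The 7 melanocyte markers were read in 24 eLCs, up to 268 CPM in sum, with Dct, Tyrp1, Mlana and Tyr at 0. The 6 dermal DC2 markers were read in 69 eLCs, at 240 CPM in sum in the median eLC and up to 2504 CPM. Mgl2, a lectin of that list, had a read in 64 eLCs at 334 CPM, whereas Cd209a and Sirpa of the same list had reads in 9 and 16. Clec10a, a lectin related to Mgl2, had a read in 31 eLCs and correlated with it (rho = 0.59; 0.68 on plate 1, 0.55 on plate 2), and how far reads of the 2 genes were told apart is not given. Among DC1 markers, Itgae had a read in 15 eLCs, Xcr1 in 12 and Batf3 in none. Xist had a read in 48 eLCs and the 4 Y-linked genes looked at had none in any eLC.

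MHC class II genes led the ranking of levels in eLCs. Cd74 stood first at 115582 TPM, followed by the class II chains H2-Ab1 at 61662, H2-Eb1 at 42009 and H2-Aa at 25907 TPM. These 4 genes together took 20.6% of all reads of eLCs, between 10.9% and 31.6% in a single cell with a median of 20.96%. Within cells, Cd74 ranged from 34770 to 123352 CPM with a median of 75425, and H2-Ab1 from 27733 to 105406 CPM with a median of 60710. No eLC was without an abundant class II transcript. The order of the 4 was the same on each plate.

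Il1r2, the decoy receptor that binds IL-1 without signaling, was the next gene in the ranking, at 23602 TPM. It had a read in every eLC, from 783 to 38015 CPM with a median of 17453. Cst3, which encodes the cysteine protease inhibitor cystatin C, followed at 19029 TPM, and Ftl1, the ferritin light chain, at 9809 TPM. S100a11 and Tmsb4x, which encode a calcium-binding and an actin-binding protein, stood at 8864 and 7242 TPM. Sqstm1, the autophagy receptor p62, stood at 6044 TPM, Tyrobp, the signaling adaptor DAP12, at 5653 TPM, and Mfge8, whose product bridges phosphatidylserine to integrins, at 5568 TPM. The 30 genes with the highest TPM also held Syngr2, Cd83, the nonclassical class I gene H2-M2, the growth factor gene Pgf, H2-D1, B2m, Lgals3, Nfkbia, Fth1, Cd207 and the cathepsin gene Ctsz. Of the 30, 25 had a read in all 79 eLCs, and 27 were annotated as protein-coding. The others were a 57-base miRNA entry (Gm23935) and rRNA entries (mt-Rnr2 and CT010467.1), and a level per length is least certain for so short an entry.

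The plates agreed on most of this order. The 30 highest genes of plate 1 included 27 of the 30, and those of plate 2 included 28. Summed CPM of plate 1 and plate 2 had a Spearman rho of 0.94 over the 5618 genes read in at least 25% of the eLCs of each plate. The choice of length mattered more. With the median length of a gene's transcripts in place of all its exons, 18 of the 30 remained, the first 6 genes still held the first 6 places, and Cd207 moved from rank 28 to rank 76.

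**Figure D1:**
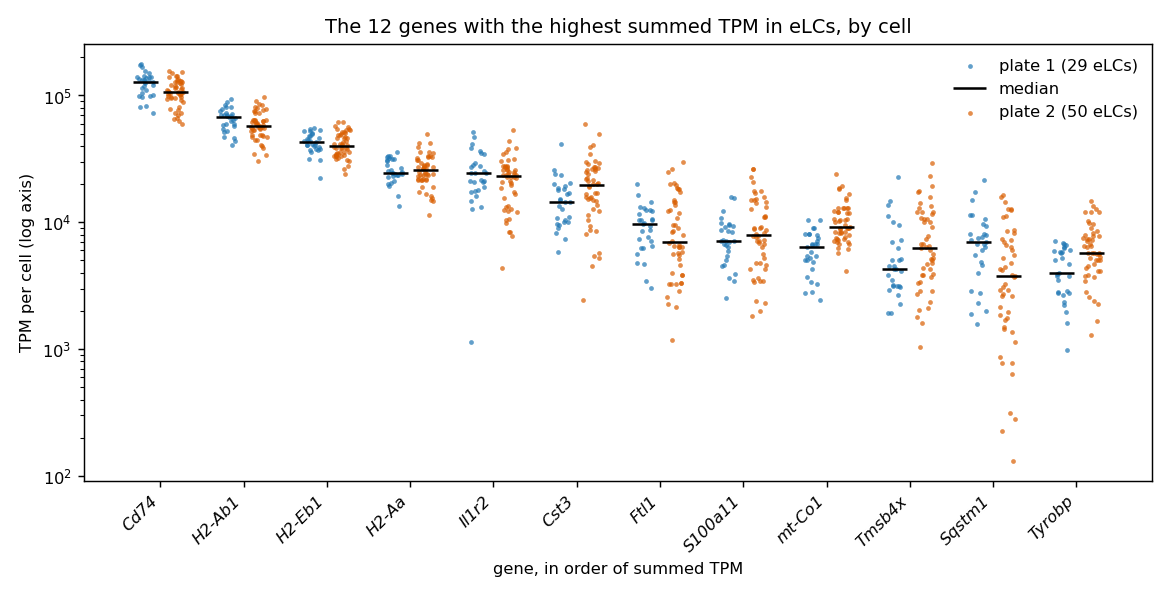
TPM of the 12 genes with the highest summed TPM in each of 79 eLCs, on a log axis, with plate 1 (29 eLCs) and plate 2 (50 eLCs) side by side and a line at each median. Cd74, H2-Ab1, H2-Eb1 and H2-Aa form narrow bands, while Il1r2 and Sqstm1 spread more widely.

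The remaining members of class II presentation were less abundant. H2-DMb1 and H2-DMa, the chains of the peptide exchanger, stood at 1517 and 863 TPM, H2-DMb2 at 718 TPM and the invariant chain protease Ctss at 2913 TPM. H2-Oa and H2-Ob, which encode the inhibitor of H2-DM, had a read in 14 and 22 eLCs. For class I presentation, H2-D1, B2m and H2-K1 stood at 4669, 4090 and 1848 TPM with reads in every eLC, whereas the peptide transporter genes Tap1 and Tap2 stood at 51.97 and 32.6 TPM with reads in 44 and 48 eLCs. Nlrc5, the class I transactivator, had no read in any eLC.

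Langerin was not among the most even transcripts. Cd207 ranged from 76.5 to 7767 CPM with a median of 1448, from 261 to 5915 CPM on plate 1 and from 76.5 to 7767 CPM on plate 2. The ranges of the plates overlapped almost fully, but the median eLC stood at 1801 CPM on plate 1 and at 1018 CPM on plate 2. Epcam, the adhesion molecule of the sort gate, ranged from 0 to 3122 CPM with a median of 681, and the tight junction gene Cldn1 from 0.97 to 6446 CPM with a median of 2070. Cdh1, which encodes the E-cadherin that binds LCs to keratinocytes, had a read in 32 of 79 eLCs (40.5%, exact 95% interval 29.6 to 52.1, for counting error only). Of the other gated proteins, Itgax (CD11c) and Cd24a had a read in 63 eLCs each and Itgam (CD11b) in 27.

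Among transcription factors of LCs, Spi1 (PU.1), the master factor of myeloid cells, had a read in 78 eLCs at 629 TPM. Id2 and Runx3, both needed for LCs, had reads in 64 and 44 eLCs at 278 and 19.5 TPM. Cebpb and Irf8 had reads in 67 and 53 eLCs. Zeb2 had a read in 2 eLCs and Ikzf1 in 12. Csf1r, the receptor for CSF1 and IL-34, had a read in 77 eLCs at 529 TPM, and Csf2rb in 78 at 364 TPM. Tgfb1 and its receptor gene Tgfbr1 had reads in 66 and 35 eLCs, but at 20.5 and 6.26 TPM, and Smad3 and Axl had none.

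Among proteins for the recognition of dying cells, Mfge8 and the phosphatidylserine receptor gene Timd4 (TIM-4) stood apart. Mfge8 ranged from 918 to 32086 CPM with a median of 8942, and no eLC lacked it. Timd4 ranged from 0 to 4396 CPM with a median of 161 and had a read in 75.9% of eLCs (interval 65.02 to 84.9). Cd300a had a read in 27 eLCs, Itgav in 15, Gas6, Cd300lf and Itgb3 in 1 each, and Axl, Mertk, Tyro3, Cd36, Stab1 and Itgb5 in none.

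Cell-to-cell variation was measured as the SD of log2(CPM + 1) over cells. Since this SD depends on the level, each gene's SD was set against the running median of genes of like mean level, and the difference is called its excess SD. Among the 5618 genes, 37 had an excess SD of at least 1 log2 unit on both plates (0.659%). The excess SD of plate 1 and plate 2 had a Spearman rho of 0.68 across genes.

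Fos, an immediate early transcription factor, had the largest excess SD, 2.80 on plate 1 and 2.89 on plate 2. It ranged from 0 to 25161 CPM with a median of 510 and had a read in 60 eLCs. Il1b, the gene of the cytokine IL-1beta, had an excess SD of 2.79 and 3.92, a range from 0 to 29053 CPM, a median of 788 CPM and a read in 61 eLCs. Thus Il1b was among the 30 highest genes although 18 eLCs had no read of it. The granzyme B inhibitor gene Serpinb9 followed at 2.70 and 2.10, with a range from 0 to 11972 CPM.

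The other 17 of the 20 genes with the largest excess SD were Anxa1, Ifitm2, Plaur, Lgals3, Serpinb6b, Hilpda, Coro1a, Clec7a, Tnfrsf9, Jun, Gem, Ier3, Cd63, Ccr7, Dusp1, Gpr183 and Scin. Clec7a encodes the beta-glucan receptor Dectin-1, and ranged from 0 to 5870 CPM with a median of 1272. Tnfrsf9 encodes the costimulatory receptor 4-1BB, and ranged from 0 to 6498 CPM with a median of 1202. Lgals3 (galectin-3) ranged from 0 to 27995 CPM with a median of 1301. Each of the 3 had a read in at least 72 eLCs, and the few eLCs without a read added to their SD. Ccr7 had a read in 31 eLCs (39.2%, interval 28.4 to 50.9), 41.4% on plate 1 and 38% on plate 2, and reached 5280 CPM.

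Over all 5618 genes, 37 (0.659%) had an excess SD of at least 1 on both plates. By list, 4 of the 13 immediate early genes read widely enough to be measured did (Fos, Jun, Ier3 and Dusp1). So did 3 of 11 maturation and migration genes (Ccr7, Cd40 and Cd83) and 2 of 10 NF-kB and cytokine genes (Il1b and Cxcl2). The others were 1 of 10 class II genes (H2-DMa), 1 of 15 lysosome genes (Cd63), 1 of 13 actin genes (Coro1a) and 1 of 3 phosphatidylserine genes (Timd4). No member of the LC transcription factor, adhesion, class I, heat shock or ribosomal lists had such an excess SD. The lists were drawn up with earlier results of these data known, so the counts describe the lists and no more.

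Of the 313 genes with a read in every eLC, the 4 class II genes had the smallest SDs. They were 0.37 for Cd74, 0.38 for H2-Eb1, 0.41 for H2-Ab1 and 0.46 for H2-Aa, in log2 units. Next came the translation elongation factor gene Eef1a1 at 0.51, the actin-severing cofilin gene Cfl1 at 0.52, and Ybx1, Tpt1, Ube2d3 and Rps2 at 0.56 to 0.59. Cfl1 ranged from 345 to 1872 CPM with a median of 1013. Ybx1, Tpt1 and Rps2 were further below the running median (excess SD over all eLCs -0.87, -0.71 and -0.65) than Cd74 (-0.52) or H2-Aa (-0.43). For Cd74 and H2-Aa, at the top of the range of levels, that median came mostly from genes of lower level. Their excess SD is therefore not set against genes of like level. H2-DMa, which acts on the class II products, had an excess SD of 1.25 on plate 1 and 1.33 on plate 2.

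**Figure D2:**
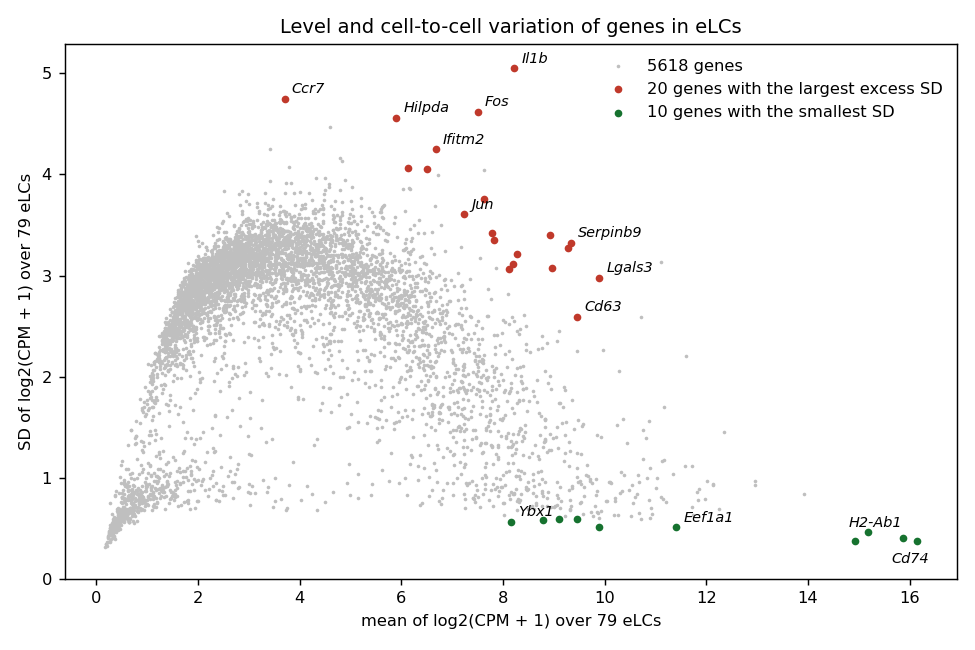
Mean against SD of log2(CPM + 1) over 79 eLCs for the 5618 genes read in at least 25% of the eLCs of each plate, 1 point per gene. The 20 genes with the largest excess SD (red) lie above the cloud at their level, led by Fos and Il1b, and the 10 genes with the smallest SD among those read in every eLC (green) lie along its lower right edge, ending in H2-Ab1 and Cd74.

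Correlations between genes were taken as Spearman rho over the 79 eLCs. The cells share plates, and low genes share depth, so rho is given as a description with no p, together with its value on each plate. The median over all 15778153 pairs of the 5618 genes was 0.015, with 90% of pairs between -0.19 and 0.22. A rho of at least 0.3 on both plates was found in 0.336% of pairs. The 20 largest values were taken among genes read in at least 50% of the eLCs of each plate. In 19 of these 20 pairs the transcripts of the genes had a stretch of 25 bases in common, and 15 held a pseudogene, such as Cd63 with Cd63-ps (rho = 0.95). The exception was Rpl32 with Rpl41. Whether reads shared between such genes made their correlation was not tested.

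The 20 largest values of protein-coding pairs with no such stretch and no overlap, a rule made after the first ranking was seen, held 14 pairs of cytosolic ribosomal proteins. Of the other 6 pairs, H2-Aa and H2-Eb1 had a rho of 0.84 (0.77 on plate 1, 0.86 on plate 2). C1qa and C1qc, which encode chains of the complement protein C1q, had a rho of 0.74 (0.74, 0.72), with reads in 61 and 40 eLCs. Atf4 and Ifrd1, both of the integrated stress response, had a rho of 0.67 (0.70, 0.68). Pdia3 and Pdia6, which encode disulfide isomerases of the endoplasmic reticulum, had a rho of 0.67 (0.71, 0.67). Ndufa6 and Sh3bgrl3 had a rho of 0.69 (0.70, 0.67).

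The last of the 6 was Cd207 with Hbegf, at a rho of 0.84 (0.76, 0.81). The DT receptor that the Cd207DTR locus carries is the human form of the Hbegf product, a growth factor precursor. Hbegf had a read in 69 of 79 eLCs, from 0 to 21.8 CPM with a median of 4.10. Among donor-derived LCs that passed the same filter, which do not carry the Cd207DTR locus, it had a read in 5 cells (4.85%), the highest at 116 CPM. Whether reads of the receptor were counted under Hbegf was not tested.

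H2-Ab1 followed the other abundant class II genes. It correlated with H2-Eb1 at 0.65 (0.73, 0.63), with Cd74 at 0.64 (0.79, 0.59) and with H2-Aa at 0.60 (0.69, 0.58), and next with Cst3 at 0.49 (0.69, 0.46). Cd74 was less close to H2-Eb1 at 0.36 (0.59, 0.29) and to H2-Aa at 0.26 (0.59, 0.14). Since these genes make up a large part of each cell's reads, their CPM values depend on one another. Among the 3 genes of H2-DM, H2-DMa correlated with H2-DMb1 at 0.59 (0.47, 0.62) and with H2-DMb2 at 0.45 (0.36, 0.46). H2-DMb1 and H2-DMb2 were less close, at 0.29 (0.24, 0.32), and H2-DMb2 had a rho of 0.37 (0.41, 0.42) with Cd74. Between H2-DMa and the abundant genes rho was -0.05 for H2-Aa (-0.40, 0.03), 0.04 for H2-Ab1 (-0.19, 0.16), 0.04 for H2-Eb1 (-0.22, 0.11) and 0.13 for Cd74 (0.09, 0.24). Ciita, the class II transactivator, correlated with H2-Aa at -0.24 (-0.50, -0.12). Over the whole list the median rho was 0.094 (0.011 on plate 1, 0.16 on plate 2), and 7 of 45 pairs (15.6%) reached 0.3 on both plates.

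H2-Aa and H2-Eb1 are neighbors on chromosome 17, and the 160 bases before their transcription starts are shown because they were the non-ribosomal pair with the closest course across eLCs. Sequences are from RefSeq (GRCm38.p6), 5′ to 3′ on the strand of the gene, and end at the base before the start. The capitals mark CTGATTGG, the letters searched for the Y box, an element of class II promoters.

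H2-Aa (chr17:34287824-34287983, minus strand): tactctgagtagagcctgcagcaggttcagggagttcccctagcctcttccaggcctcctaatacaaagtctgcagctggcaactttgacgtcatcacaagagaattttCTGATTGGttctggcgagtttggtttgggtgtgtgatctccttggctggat

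H2-Eb1 (chr17:34305707-34305866, plus strand): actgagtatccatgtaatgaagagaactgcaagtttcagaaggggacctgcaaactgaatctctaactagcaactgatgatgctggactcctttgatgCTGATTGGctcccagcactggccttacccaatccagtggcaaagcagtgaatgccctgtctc

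Both held 1 match, with its first base at -51 in H2-Aa and -62 in H2-Eb1. Of the 8 class II list promoters that could be matched, out of 11 genes, 3 held these letters on either strand, and of the same window of all 27025 promoters 3.51% did. A match describes the letters and not a bound site.

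Outside the ribosomal and mitochondrial lists, the immediate early genes had the highest median rho among lists with at least 3 pairs. These genes are switched on within minutes of a stimulus and include Fos and Jun, which form AP-1, and feedback genes such as the phosphatase gene Dusp1 and the mRNA-decay gene Zfp36. The median rho of their 78 pairs was 0.34 (0.38 on plate 1, 0.35 on plate 2), and 32 pairs (41.03%) reached 0.3 on both plates. Jun correlated with Dusp1 at 0.55 (0.44, 0.58) and with Zfp36 at 0.48 (0.35, 0.56). Fos correlated with Ier2 at 0.52 (0.63, 0.46), with Gadd45g at 0.47 (0.44, 0.48) and with Dusp1 at 0.46 (0.53, 0.41). The summed list ran from 1059 to 55208 CPM over eLCs with a median of 4644. These genes are also known to be switched on while skin is digested to single cells, and the part of the preparation in their levels was not tested. The heat shock list, which can respond to the same handling, had a median rho of 0.22 (0.19, 0.32). The mean rank of a cell over the immediate early list correlated with that over the heat shock list at 0.39 (0.33, 0.41). It correlated as closely with that over the list of NF-kB and cytokine genes, at 0.40 (0.32, 0.48). Hspa1a and Hspa1b had reads in 49 and 43 eLCs.

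The promoters of Fos and Dusp1 are shown because both carry TGACGT, the core of the cAMP response element, in the 160 bases before the start (capitals, either strand).

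Fos (chr12:85473730-85473889, plus strand): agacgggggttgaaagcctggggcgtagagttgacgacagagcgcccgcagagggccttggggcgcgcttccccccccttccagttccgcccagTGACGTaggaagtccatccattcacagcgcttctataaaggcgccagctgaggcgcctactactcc

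Dusp1 (chr17:26508473-26508632, minus strand): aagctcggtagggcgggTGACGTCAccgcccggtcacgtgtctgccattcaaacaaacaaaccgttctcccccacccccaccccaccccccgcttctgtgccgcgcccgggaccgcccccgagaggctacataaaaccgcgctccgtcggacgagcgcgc

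In Dusp1 the letters were read on both strands and overlapped, which gave the whole element TGACGTCA. Of 12 immediate early promoters matched, 3 held TGACGT, against 5.46% of all promoters.

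Inflammatory cytokine genes formed a smaller group. Il1b correlated with the neutrophil chemokine genes Cxcl3 at 0.57 (0.39, 0.63) and Cxcl2 at 0.53 (0.41, 0.56), and with Gadd45b at 0.44 (0.37, 0.45). Cxcl3 stood at only 3.45 CPM in summed eLCs with a read in 49, against 1961 CPM for Cxcl2. How far reads of these 2 genes were told apart is not given. Cxcl2 ranged from 0 to 33622 CPM with a median of 261, and Tnf from 0 to 3266 CPM with a median of 126. Il1b was lower where Vim was higher (rho = -0.41; -0.37, -0.42) and where Csf2rb was higher (-0.40; -0.44, -0.41). The list as a whole had a median rho of 0.11 (0.11, 0.055). Summed Il1b was 2330 CPM on plate 1 and 5064 CPM on plate 2, and Cxcl2 was 609 and 2875 CPM.

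Another group of uneven genes, joined by its closest pairs only, held the costimulatory receptor gene Tnfrsf9 together with Timd4. Tnfrsf9 correlated with Serpinb9 at 0.55 (0.46, 0.59; 0.30 by Pearson on log2(CPM + 1)), with Traf1, an adaptor of TNF receptors, at 0.50 (0.65, 0.39), with the gelsolin-family gene Scin at 0.48 (0.49, 0.38) and with Timd4 at 0.48 (0.46, 0.45). Timd4 correlated next with Cd40 at 0.45 (0.54, 0.43), followed by Ttc7b, the pseudogene Gm7488 and St3gal1 at 0.39 to 0.43. Serpinb9 also correlated with Serpinb6b at 0.57 (0.54, 0.61) and with the survival gene Bcl2a1d at 0.56 (0.57, 0.59). Other pairs of these genes were loose. Serpinb9 had a rho of 0.24 with Timd4 (0.20, 0.25). Serpinb6b had 0.22 with Tnfrsf9 (0.21, 0.28), 0.14 with Timd4 (0.14, 0.13) and 0.14 with Scin (0.08, 0.16). The following pairs with maturation genes lay in a like range, so the group had no clear edge. Cd83 had a rho of 0.08 with Timd4 (0.16, 0.03) and 0.14 with Tnfrsf9 (-0.09, 0.24). Cd86 had 0.08 with Timd4 (0.20, -0.01) and 0.24 with Tnfrsf9 (0.18, 0.23). Cd40 had 0.22 with Tnfrsf9 (0.17, 0.29) and 0.12 with Serpinb9 (0.02, 0.19).

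Lgals3 had partners of its own. Of the genes above it had a rho of 0.40 with Scin (0.37, 0.44) and 0.25 with Traf1 (0.15, 0.31). It was far from Serpinb9 at 0.18 (-0.07, 0.32), Tnfrsf9 at 0.15 (0.03, 0.23) and Timd4 at 0.11 (-0.01, 0.24). It correlated with Eif4e, the cap-binding factor of translation, at 0.61 (0.63, 0.61), with Prr13 at 0.59 (0.64, 0.57) and with Rhov at 0.53 (0.53, 0.51). It was lower where immediate early genes were higher, at -0.45 for Btg2 (-0.57, -0.43), -0.45 for Nr4a1 (-0.58, -0.39) and -0.43 for Fos (-0.45, -0.41).

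Ccr7 had a weaker relation to these genes, at 0.36 with Timd4 (0.35, 0.32), 0.34 with Tnfrsf9 (0.21, 0.39), 0.30 with Cd40 (0.03, 0.46), 0.28 with Scin (0.14, 0.36), 0.15 with Serpinb9 (0.10, 0.17) and 0.05 with Lgals3 (-0.27, 0.26). It ran most clearly against H2-DMa. Its rho with H2-DMa was -0.60 (-0.68, -0.55), the most negative of any gene by the plate nearer to 0. H2-DMa itself ranged from 0 to 4256 CPM with a median of 1163 and had a read in 76 eLCs. The genes most positively correlated with Ccr7 were Mreg at 0.46 (0.43, 0.48), the proteoglycan gene Srgn at 0.46 (0.41, 0.50) and the endocytic recycling gene Ehd1 at 0.45 (0.39, 0.51). H2-DMa was also lower where Scin (-0.47; -0.45, -0.41), Tnfrsf9 (-0.44; -0.32, -0.38) and Timd4 (-0.42; -0.64, -0.25) were higher, and higher where the actin-binding coronin gene Coro1a was higher (0.48; 0.54, 0.46). Jun ran against Tnfrsf9 (-0.41; -0.43, -0.37), Serpinb9 (-0.41; -0.27, -0.47) and Ccr7 (-0.40; -0.49, -0.34). None of these values moved by more than 0.05 when the ranks of genes read per cell were removed first. The maturation and migration list as a whole was loose, with a median rho of 0.17 (0.079, 0.15) and none of its 55 pairs at 0.3 on both plates. All 18 genes of that list had a read in some eLC. Of them, 11 were read in at least 25% of the eLCs of each plate, such as Cd83 in 77 eLCs and Cd40 in 75. By contrast, Fscn1, Cd274, Cd200 and Ccl17, which migrating DCs express, had reads in 2 eLCs each.

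**Figure D3:**
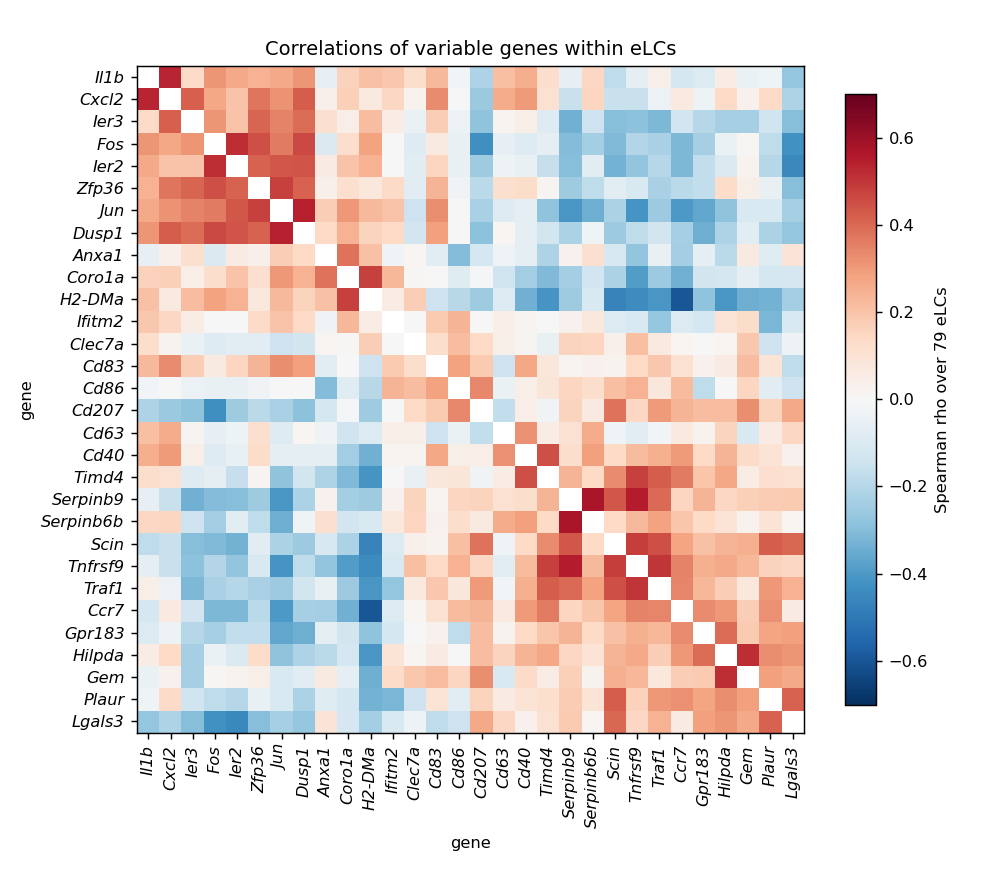
Spearman rho over 79 eLCs between the 20 genes with the largest excess SD and 10 further genes of the lists, ordered by similarity, with red for positive and blue for negative values and the diagonal left white. A red block of immediate early and cytokine genes at the upper left and a paler red block from Cd40 to Lgals3 at the lower right meet in blue, and H2-DMa with Ccr7 is the darkest blue cell at -0.60.

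**Figure D4:**
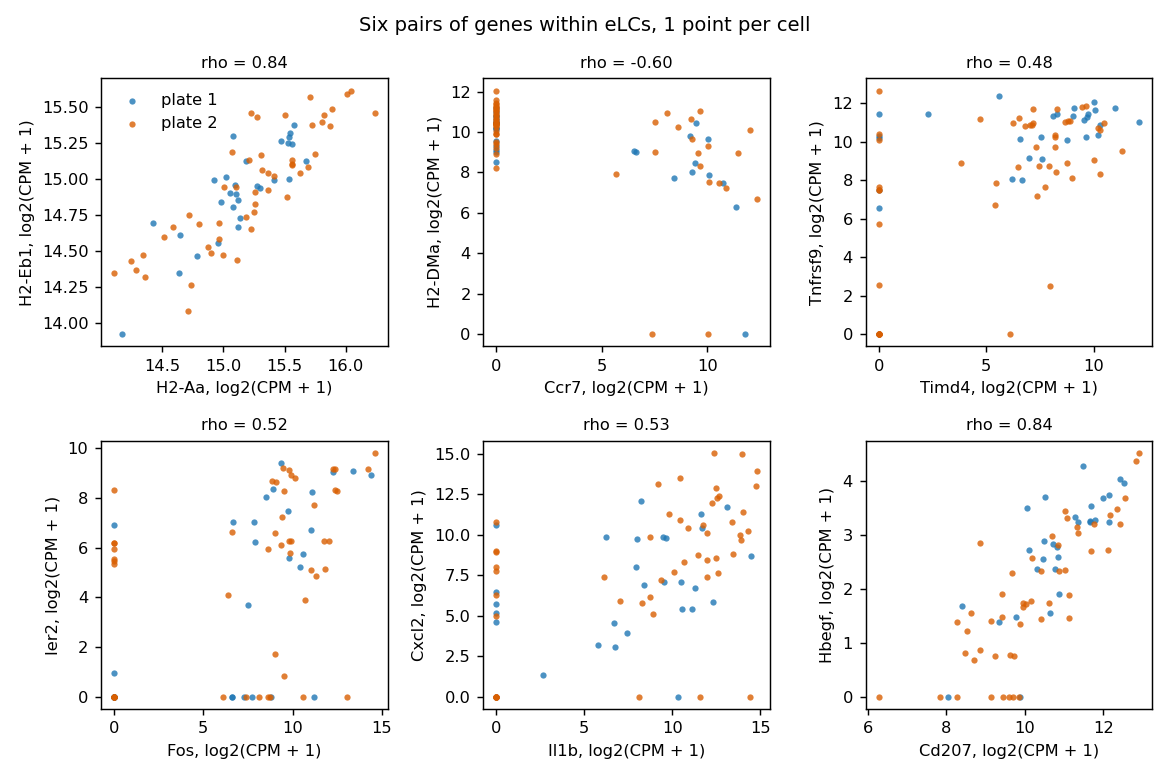
Levels of 6 pairs of genes in log2(CPM + 1), 1 point per eLC, with plate 1 in blue and plate 2 in orange. H2-Aa with H2-Eb1 (rho = 0.84) lie along a line with every eLC above 0, whereas Ccr7, Timd4, Fos and Il1b have many eLCs at 0.

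Cd207 had partners beyond Hbegf. These included Tbc1d4, a GTPase-activating protein gene, at 0.67 (0.57, 0.69), the NF-kB subunit gene Rela at 0.60 (0.53, 0.54) and Antxr2 at 0.56 (0.57, 0.53). Cd207 was lower where Fos was higher, at -0.43 (-0.28, -0.46). The genes that ran most clearly against Cd207 were the noncoding Gm10076 at -0.53 (-0.45, -0.44), which shares sequence with Rpl41, Fxyd5, which encodes a regulator of the sodium pump, at -0.59 (-0.44, -0.59) and the ribosomal gene Rps25 at -0.47 (-0.45, -0.43). For H2-Ab1 they included the phosphatidylinositol phosphatase gene Mtmr6 at -0.50 (-0.54, -0.52), the deubiquitinase gene Cyld at -0.48 (-0.47, -0.45) and the NF-kB subunit gene Nfkb2 at -0.41 (-0.45, -0.47). For Timd4 the first was Alox5ap, whose product serves leukotriene synthesis, at -0.48 (-0.55, -0.42). The partners of Epcam (Enoph1, Atp5c1, Trappc5, Commd3 and Chst10) and of Mfge8 (Psmd3, Iars, Grn, Ap2m1 and Sel1l) had rho between 0.37 and 0.48, and those of Cd74 beyond the class II genes (Cct3, Klrc1 and Fkbp8) between 0.28 and 0.32. The 15 pairs among the 6 markers had a median rho of 0.0027, and only H2-Ab1 with Cd74 reached 0.3 on both plates.

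Ribosomal and mitochondrially encoded genes also varied together. The median rho was 0.43 for the 85 cytosolic ribosomal genes (0.26 on plate 1, 0.48 on plate 2), 0.42 for the 12 mitochondrially encoded genes (0.22, 0.46) and 0.18 for the 77 nuclear genes of the respiratory chain (0.12, 0.20). A cell's mean rank over the ribosomal list correlated with that over the nuclear respiratory list at 0.71 (0.33, 0.78), and with its mitochondrial share of reads at 0.55 (0.13, 0.60). The part of depth and RNA quality in this shared course was not tested. Within the mitochondrial list mt-Co1 stood at 5164 CPM and mt-Co3 at 12.3, and how reads with near-identical copies elsewhere in the genome were counted is not given, so these levels are uncertain. Lists that varied little together included the lysosome (median rho 0.029), LC transcription factors (0.045) and TGF-beta and CSF receptor signaling (0.031).

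**Figure D5:**
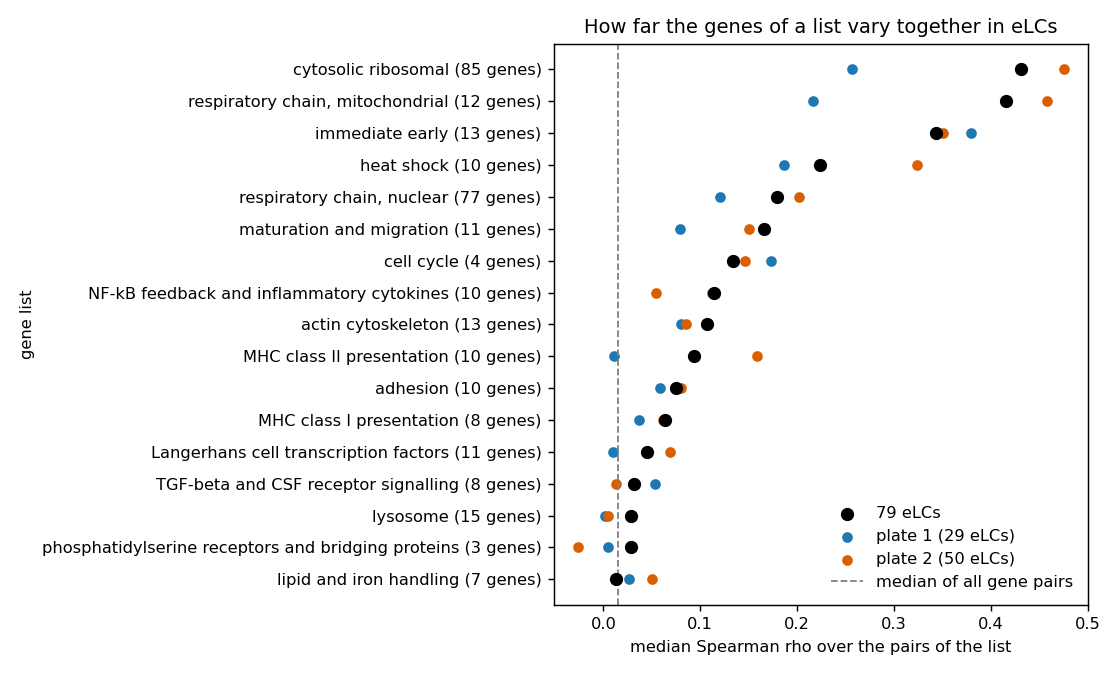
Median Spearman rho over the pairs of genes of each list, in 79 eLCs (black), plate 1 (blue) and plate 2 (orange), with a dashed line at the median of all gene pairs (0.015). Ribosomal, mitochondrial and immediate early genes lie at 0.34 to 0.43 in all eLCs, but on plate 1 alone the first 2 lists lie at 0.22 to 0.26 and the immediate early genes at 0.38.

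Mitotic transcripts were concentrated in a few eLCs. Of 9 genes of the G2 and M phases taken from the cell cycle list (Top2a, Ccnb1, Ccnb2, Ccna2, Cdk1, Birc5, Ube2c, Cenpf and Tpx2), 56 eLCs had a read of none and 4 eLCs had a read of 8 or 9. These 4 are 5.06% of eLCs (interval 1.397 to 12.5), 2 on each plate, and 3 of them were sorted into column 5 of their plate, which held 11 of the 79 eLCs. The part of the plate position was not tested. Their summed level of the 9 genes was 1217 to 6379 CPM, and it was at most 438 CPM in the other 75 eLCs. They held 79.5% of all reads of the 9 genes, between 55.8% for a single gene and 100% for another. Mki67, which marks cycling cells more broadly, had a read in 48 eLCs with a median of 7.86 CPM. More eLCs thus had a read of Mki67 than of any of the 9 genes. The 4 cells had between 5036 and 6028 genes read.

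Promoters of Ccnb1, Ccnb2 and Cdk1 are shown because these mitotic genes were read in the same few eLCs. The capitals mark CCAAT on either strand, the letters of the CCAAT box.

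Ccnb1 (chr13:100786487-100786646, minus strand): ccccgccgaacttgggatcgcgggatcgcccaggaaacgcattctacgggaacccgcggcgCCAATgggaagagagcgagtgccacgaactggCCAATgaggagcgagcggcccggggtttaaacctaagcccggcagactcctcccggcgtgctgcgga

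Ccnb2 (chr9:70421555-70421714, minus strand): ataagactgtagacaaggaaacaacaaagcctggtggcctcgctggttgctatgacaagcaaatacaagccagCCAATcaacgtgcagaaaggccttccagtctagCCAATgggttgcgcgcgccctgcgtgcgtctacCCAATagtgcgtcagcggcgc

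Cdk1 (chr10:69352913-69353072, minus strand): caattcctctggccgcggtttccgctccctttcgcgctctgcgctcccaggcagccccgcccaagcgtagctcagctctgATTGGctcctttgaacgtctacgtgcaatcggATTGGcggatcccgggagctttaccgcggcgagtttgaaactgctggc

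Ccnb2 held 3 matches and the others 2 each. Of the 7 promoters matched among the 9 genes, 6 held at least 2 matches, against 6.86% of all promoters.

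Principal component analysis of eLCs alone found no dominant axis. The first component held 4.96% of the variance of the 2000 most variable genes and the second 3.90%. On the first, Bcl2a1d, Tmsb4x, Bcl2a1a, Ifi205, Pgf and Id2 led one side, and Ppp1r21, Txnip, Mau2, Gsn, Elmo1 and Csf1r the other. Scores on it had a rho of -0.63 (-0.75, -0.61) with the share of reads on the 4 class II genes, of 0.59 (0.64, 0.55) with the mean rank over the TGF-beta and CSF list and of 0.55 (0.40, 0.60) with that over the adhesion list. Csf1r is itself a member of the TGF-beta and CSF list. The first component also had a rho of 0.40 (-0.01, 0.52) with total reads and 0.31 (0.58, 0.16) with genes read. Its rho with the ribosomal share was -0.48 (-0.08, -0.61). The TGF-beta and CSF list followed genes read at 0.35 (0.56, 0.22), and the adhesion list total reads at 0.35 (0.20, 0.36). The part of depth in these values was not tested. On the second, Fos, Ier5l, Vrk1, Plk2, Prdx2, Ldha and Egr1 led one side and Sqstm1, Cd207, Zswim4, Ehd1, Tbc1d4 and Scin the other. Scores on it had a rho of -0.52 (-0.54, -0.40) with the ribosomal share and of -0.32 with plate. The mitochondrial share had a rho of -0.49 with the first component, but 0.09 on plate 1 and -0.70 on plate 2, and of -0.47 (-0.06, -0.43) with the second.

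Between the plates, 936 of 6767 genes read in at least 25% of the eLCs of either plate differed at least 2-fold in summed CPM (13.8%), 567 higher on plate 2 and 369 higher on plate 1. The labels name no animal, so plates and animals cannot be told apart. Widely read genes differed less, with 13 of the 935 genes read in at least 90% of eLCs (1.39%) at least 2-fold apart. The 25% filter could be passed on 1 plate alone, so genes high on only 1 plate entered the count through that plate. The count and the largest ratios thus depend in part on the filter. The largest ratios came from genes read in few cells. Egfr had a read in 6.90% of eLCs on plate 1 and 26% on plate 2, and Cox15 in 27.6% and 4%. Egfr stood at 0.39 CPM on plate 1 and 47.01 on plate 2 (log2 ratio 6.93), with 39.2% of its reads in 1 cell, followed by Slx1b (5.85), Rpl21-ps1 (4.65) and Pan2 (4.37). Toward plate 1, Cox15 stood at 29.8 and 0.40 CPM (-6.22), followed by Dnajb5 (-3.98), Zbed5 (-3.89) and Nsmf (-3.84). Among the 20 genes with the largest ratios, the cell with the most reads held between 9.77% and 85.9% of a gene's reads. The 6 LC markers differed by less than 2-fold, the largest gap being Timd4 at 653 CPM on plate 1 and 344 on plate 2.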

How the data were processed

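Single sorted cells were turned into full-length cDNA by Smart-Seq, and the authors read both ends over 75 bases. They mapped the reads to mm10 using STAR, and the values deposited are raw counts for each gene in each cell. The counting tool and annotation are not given in the sources used here. Of the deposited values, 9 in 8 columns lay midway between whole numbers, as estimated counts can, and were rounded up. All deposited columns were matched to labelled cells. A few named genes are not reported here.

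The members, lists and measures were chosen with earlier results of these data known. CPM came from reads summed over eLCs, TPM from the exon lengths of GENCODE M21 (GRCm38), which named 45495 of 45661 genes. The rest held 0.139% of eLC reads. Intervals at 95% are exact Clopper-Pearson and cover counting error only. Excess SD used a running median of 101 genes, with fewer at either end of the range of levels, and a pseudocount of 1. A plate at 0 was set to 3 reads. Components came from Seurat 5.3.0 (LogNormalize, scale factor 10000) in R 4.3.3, factors for alternatives from edgeR 4.0.16 (TMM) and DESeq2 1.42.0, and the rest from Python 3.11.15 with numpy 2.4.6, pandas 2.3.3, scipy 1.17.1 and matplotlib 3.10.9. Measures were tested on simulated counts with planted folds, variation and a planted module. The simulation used only genes read in at least 90% of eLCs, so it does not cover genes read in fewer cells. Doublets were not called. The paper states that cells were sorted singly, and whether each well held 1 cell was not checked.

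Named genes were the list members, the 30 highest TPM, the 20 largest excess SDs (lower of both plates), the 10 smallest SDs, the 20 closest pairs, 5 partners of each LC marker, the 10 largest plate ratios in each direction and the leading genes of 2 components. Partners of Ccr7, Fos, Il1b, Serpinb9 and Lgals3, negative partners, pairs of the variable genes and the 9 mitotic genes were chosen after their values were seen. Alternatives were other scalings, filters, pseudocount, lengths, thinning to equal depth, single plates and each cell left out in turn.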

Additional observations from a re-analysis of the deposited data

How the results depend on the processing

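Of the 30 genes with the highest level, 18 remained with the median transcript length in place of all exons, an alternative chosen after seeing the data, and 29 to 30 when each cell was left out in turn. The 37 genes of high excess SD became 20 with a pseudocount of 10 and 34 to 40 with 1 cell left out. Of the 936 genes at least 2-fold apart between plates, 256 remained in number with a read asked in at least 50% of the eLCs of 1 plate and 141 at 4-fold, while 6419 passed with no filter. Leaving out each cell gave 914 to 1003. The median rho of the immediate early list was 0.320 by Pearson on log2(CPM + 1), 0.321 with DESeq2 size factors and 0.379 on plate 1. On 1 plate, that of the heat shock list was 0.324 (plate 2), of ribosomal genes 0.257 (plate 1), of maturation genes 0.0790 (plate 1), of class II genes 0.0108 (plate 1) and of NF-kB and cytokine genes 0.0546 (plate 2). The first component held 9.14% on plate 1 and 7.22% on plate 2, with fewer cells each. With each cell left out, the list medians ran from 0.328 to 0.358 (immediate early), 0.209 to 0.253 (heat shock), 0.420 to 0.438 (ribosomal), 0.150 to 0.179 (maturation), 0.0652 to 0.126 (class II) and 0.0865 to 0.135 (NF-kB). The sign of none of these values turned, but medians and pairs near 0 turned on single plates, the phosphatidylserine list from 0.028 to -0.026 (plate 2) and the LC markers from 0.0027 to -0.019 (plate 1). The cause of these shifts was not tested. H2-Aa with H2-Eb1 went to 0.935 and H2-Ab1 with Cd74 to 0.837 with DESeq2 size factors. Ccr7 with H2-DMa stayed between -0.68 and -0.53. No paired analysis was possible because the labels give no replicate numbers or animals. Genes with few reads in few cells are limited by depth, and 1 sample of eLCs does not allow a statement on animals.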

Other observations

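Interferon-stimulated genes were scarce in eLCs. Of 16 listed, 8 had no read in any eLC (Ifit1, Ifit2, Ifit3, Oasl1, Oasl2, Ifi44, Rsad2 and Mx1), and the summed list was at 9.30 CPM in the median eLC, with a highest cell at 1201 CPM. Ifitm2, which was not on the list, stood among the most uneven genes, with a read in 59 eLCs and a range from 0 to 4796 CPM, while its relative Ifitm3 had a read in 39 eLCs and at most 32.4 CPM.

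Lysosomal proteases differed widely in level. Ctsz stood at 3541 TPM and Ctsb at 391 TPM, both with reads in every eLC, whereas Ctsd and Ctsl stood at 35.98 and 13.4 TPM with reads in 23 and 12 eLCs. Iron storage was high, with Ftl1 at 9809 and Fth1 at 3931 TPM, while the transferrin receptor gene Tfrc had a read in 34 eLCs and Hmox1 in 7. Apoe had a read in 47 eLCs at 326 TPM, and Lpl in none.

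C1q genes were read in many eLCs, C1qa in 61 at 580 TPM, C1qb in 43 at 356 TPM and C1qc in 40 at 133 TPM.

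In all, 6 eLCs had reads of at least 3 of the 9 mitotic genes. Of these, 5 came from column 5 of the plates, which held 11 eLCs, and 1 from the other columns, which held 68 eLCs.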
